A study of Mus musculus with 32 samples.

Results

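The genes described here are 7 markers of bile duct cells and simple epithelia (Krt8, Krt18, Krt19, Sox9, Epcam, Cldn7 and Spp1), followed across mouse liver samples. Their probes were picked by gene symbol in the probe annotation. The markers themselves were chosen with earlier results of these data known. Of the 7, 6 had a probe on at least 1 of the 2 array versions used. The female version carried 5 of them among 16593 named genes, and the male version 6 among 15967. No probe of either version is named Spp1, and the female version has none named Epcam. A level high enough to be tested was found for 4 markers in females (Krt8, Krt18, Sox9 and Cldn7) and for 3 in males (Krt8, Krt18 and Sox9).

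Livers of C57bl/6J OlaHsd mice were taken at 20 weeks of age, with 1 array for each of 32 samples. The mothers had eaten a diet with 18% protein or a low-protein diet with 9% (90 g casein per kg) while pregnant, and from 6 weeks of age the offspring ate a control diet or a high-fat diet (labelled 36% SF) for 14 weeks. Each sex therefore had 4 groups of 4 arrays: control diet after 18% mothers, control diet after 9% mothers, high-fat diet after 18% mothers and high-fat diet after 9% mothers. Females and males were hybridised to different array versions, so a level in one sex cannot be set against a level in the other. Whole liver was used, so fewer cells of a type and less RNA per cell cannot be told apart. The labels call the 4 samples of a group biological replicates but do not give their litters, so p-values measure the spread between animals that may share a litter. Per array, 44.0% to 47.3% of probes were detected in females and 43.7% to 47.2% in males, where detected means a detection p-value under 0.05. The brightness of the arrays (mean raw intensity) went with the diet in females: 399 to 452 on the control diet against 323 to 418 on the high-fat diet after 18% mothers, and 366 to 461 against 300.04 to 410 after 9% mothers. In males it was 247 to 282 against 170 to 306, and 261 to 309 against 221 to 275.

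Keratins form the intermediate filaments of epithelial cells, and each filament needs a type I keratin paired with a type II keratin. Krt8 (type II) and Krt18 (type I) are the pair of simple epithelia. In liver they are made by hepatocytes as well as by bile duct cells, and they protect hepatocytes from mechanical and toxic stress. Krt19 (type I) is made by bile duct cells and is normally absent from adult hepatocytes. Sox9 is a transcription factor of the developing and adult bile ducts. Epcam is an adhesion molecule, Cldn7 a claudin of epithelial cell junctions, and Spp1 (osteopontin) a secreted glycoprotein; all 3 mark bile duct cells in liver.

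The genes for the keratin pair are neighbours on chromosome 15. In the RefSeq annotation of GRCm38.p6 they lie with 2 genes between them (Gm36026 and Gm41404), 0 of them protein-coding. RefSeq promoter windows were matched by symbol for 5 of the 7 markers. Those of the keratin pair are shown because both levels moved together from liver to liver, as described further on. Each window runs from 250 bases before the annotated start to its first 20 bases, on the gene's own strand of GRCm38.p6: chr15:102004323-102004592, minus strand, for Krt8, and chr15:102027966-102028235, plus strand, for Krt18. The capitals mark TATAA on either strand, the core letters of a TATA box.
Krt8 promoter: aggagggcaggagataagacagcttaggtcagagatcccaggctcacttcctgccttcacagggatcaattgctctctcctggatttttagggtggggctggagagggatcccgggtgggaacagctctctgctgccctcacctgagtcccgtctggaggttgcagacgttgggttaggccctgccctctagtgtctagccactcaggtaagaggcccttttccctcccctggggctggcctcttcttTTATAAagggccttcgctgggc
Krt18 promoter: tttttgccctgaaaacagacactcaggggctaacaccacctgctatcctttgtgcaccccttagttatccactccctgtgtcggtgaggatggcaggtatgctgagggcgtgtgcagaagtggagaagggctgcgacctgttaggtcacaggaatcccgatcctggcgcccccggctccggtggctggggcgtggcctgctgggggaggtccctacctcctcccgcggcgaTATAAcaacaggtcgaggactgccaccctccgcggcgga
In the Krt8 window TATAA stood at positions -1 to 4, counted with 1 at the annotated start and -1 just before it, and overlapped a match on the opposite strand at -2 to 3. In the Krt18 window it stood at -19 to -15. Of all 32841 windows of the same 270 bases in the RefSeq table, 23.7% hold TATAA on either strand. CANNTG, the letters of an E-box, was found at 2 places in the Krt8 window and at 1 in the Krt18 window, against 68.9% of all windows. Also searched on both strands were CCAAT (the CCAAT box, held by 35.4% of all windows), GGGCGG (a GC box, 34.2%) and TGANTCA (an AP-1 element, 7.23%), each with 0 matches in both windows.

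Detection split the markers sharply. Krt8 and Krt18 were detected on all 16 arrays of each sex, through the same probe on both versions. Krt19, also measured by the same probe on both versions, reached detection on 0 of 16 arrays in females and 0 of 16 in males. Epcam was detected on 0 of 16 male arrays. The 2 versions carry different probes for Sox9 and for Cldn7. Sox9 was detected on 6 of 16 female arrays and 16 of 16 male arrays, and Cldn7 on 16 of 16 female arrays and 0 of 16 male arrays. A second Krt8 probe on the male version was detected on 0 of 16 arrays, so the 2 probes of that gene disagree.

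The label of bile duct markers was thus matched in part. Krt19 in both sexes and Epcam in males were not detected, while Sox9 in males and Cldn7 in females were detected on every array. Which cells the levels of Krt8 and Krt18 came from cannot be told from these arrays. Among 22 other bile duct markers, 20 were on the female version and 11 of them passed the detection filter (detected on at least 4 of 16 arrays), and 18 were on the male version with 12 passing. Cd24a, Cftr, Dmbt1, Ehf and Elf3 were detected on 0 arrays in both sexes. Others were detected throughout, among them Cldn3, a claudin, Aqp1, a water channel, and Slc4a2, an anion exchanger. Krt7, a type II keratin of ducts, reached detection on 5 of 16 arrays in females and 14 of 16 in males, and Pkhd1, the fibrocystin of ducts and kidney tubules, on 6 and 16. The hepatocyte list was measured almost in full, with 18 of 18 genes on the female version and 15 of 15 on the male version passing the filter. Not being detected on these arrays does not show that a transcript was absent.

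**Figure D1:**
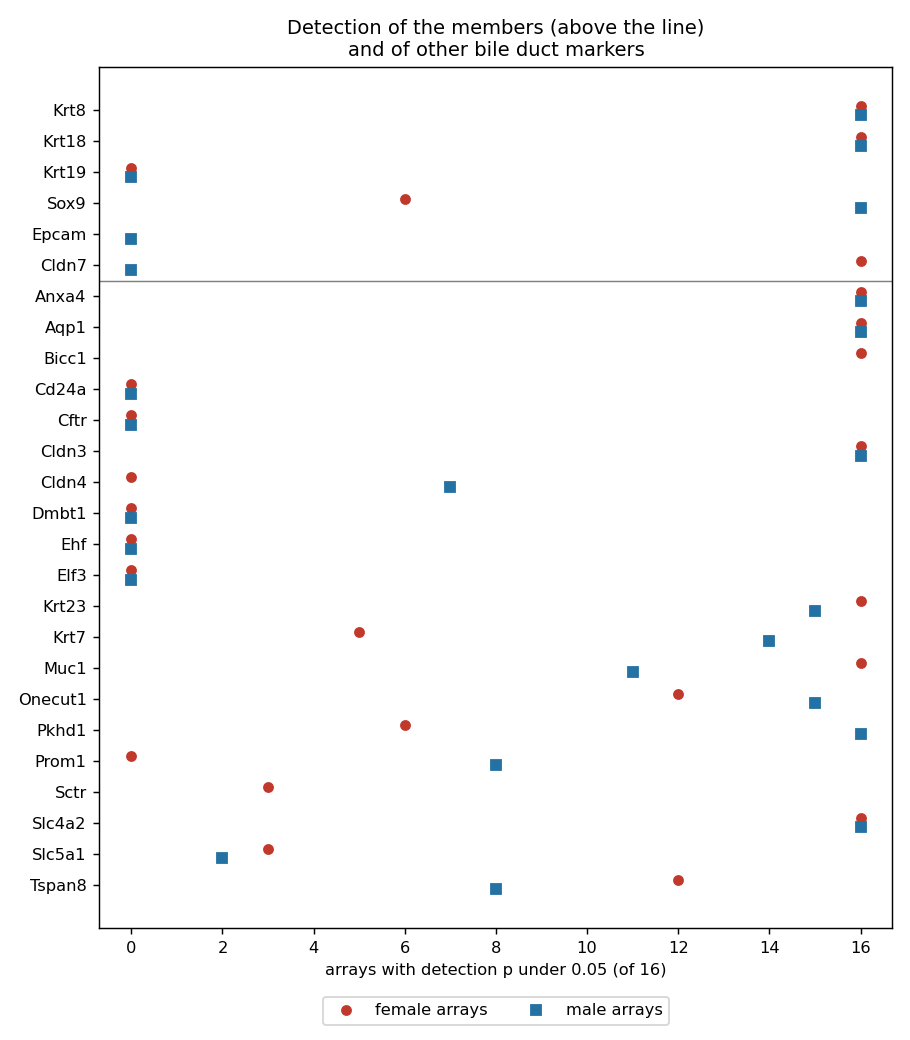
Number of arrays, of 16 per sex, on which each gene was detected (detection p under 0.05), for the markers described here (above the line; the brighter Krt8 probe) and for other bile duct markers (below it); a missing symbol means no probe on that version. Krt8 and Krt18 stand at 16 in both sexes and Krt19 at 0 in both.

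In female livers Krt8 was highest on the control diet after 18% mothers. Its normalised level there (log2 intensity) was 11.96, 11.46, 12.77 and 12.48 on the 4 arrays, a mean of 12.17 ± 0.58 (SD, n = 4). On the high-fat diet after 18% mothers the 4 values were 11.47, 12.05, 11.75 and 12.05 (mean 11.83 ± 0.27). The values of the second group all lie within the range of the first. After 9% mothers the values were 11.46, 11.58, 11.32 and 11.44 on the control diet (mean 11.45 ± 0.11) and 11.38, 11.36, 11.64 and 11.26 on the high-fat diet (mean 11.41 ± 0.16). Both groups of 9% mothers sat at the foot of the range with little spread, and each pair of neighbours in the order overlapped.

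Krt18 in females had the same order of group means. Its values were 10.76, 10.49, 11.51 and 11.36 on the control diet after 18% mothers (mean 11.03 ± 0.49, SD, n = 4) and 9.85, 10.81, 10.88 and 10.56 on the high-fat diet after 18% mothers (mean 10.52 ± 0.47). After 9% mothers they were 10.42, 10.55, 10.04 and 10.20 on the control diet (mean 10.30 ± 0.23) and 10.01, 9.97, 10.12 and 9.65 on the high-fat diet (mean 9.94 ± 0.20). The 2 highest arrays for both keratins were replicates 3 and 4 of the control diet after 18% mothers. Replicate 1 of the high-fat diet after 18% mothers stood low for Krt18, among the values of the 9% mothers.

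In male livers the order of the groups was the reverse for maternal diet. Krt8 was 11.84, 12.00, 11.49 and 12.36 on the control diet after 9% mothers (mean 11.92 ± 0.36) and 10.81, 11.47, 11.17 and 12.37 on the control diet after 18% mothers (mean 11.46 ± 0.67). The high-fat values were 11.14, 12.26, 11.61 and 11.86 after 9% mothers (mean 11.72 ± 0.47) and 11.10, 11.81, 11.36 and 11.81 after 18% mothers (mean 11.52 ± 0.35). All 4 male groups overlapped, and replicate 4 of each control-diet group was its highest.

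Male Krt18 followed the same order. On the control diet it was 10.76, 10.89, 10.22 and 11.27 after 9% mothers (mean 10.79 ± 0.43) and 9.92, 9.96, 9.80 and 11.15 after 18% mothers (mean 10.21 ± 0.63). The high-fat values were 10.09, 11.12, 10.44 and 10.83 after 9% mothers (mean 10.62 ± 0.45) and 10.16, 10.45, 10.11 and 10.67 after 18% mothers (mean 10.35 ± 0.26). Replicate 4 of the control diet after 18% mothers stood more than 1 log2 unit above the other 3 arrays of its group, and its inclusion makes that group overlap the others.

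**Figure D2:**
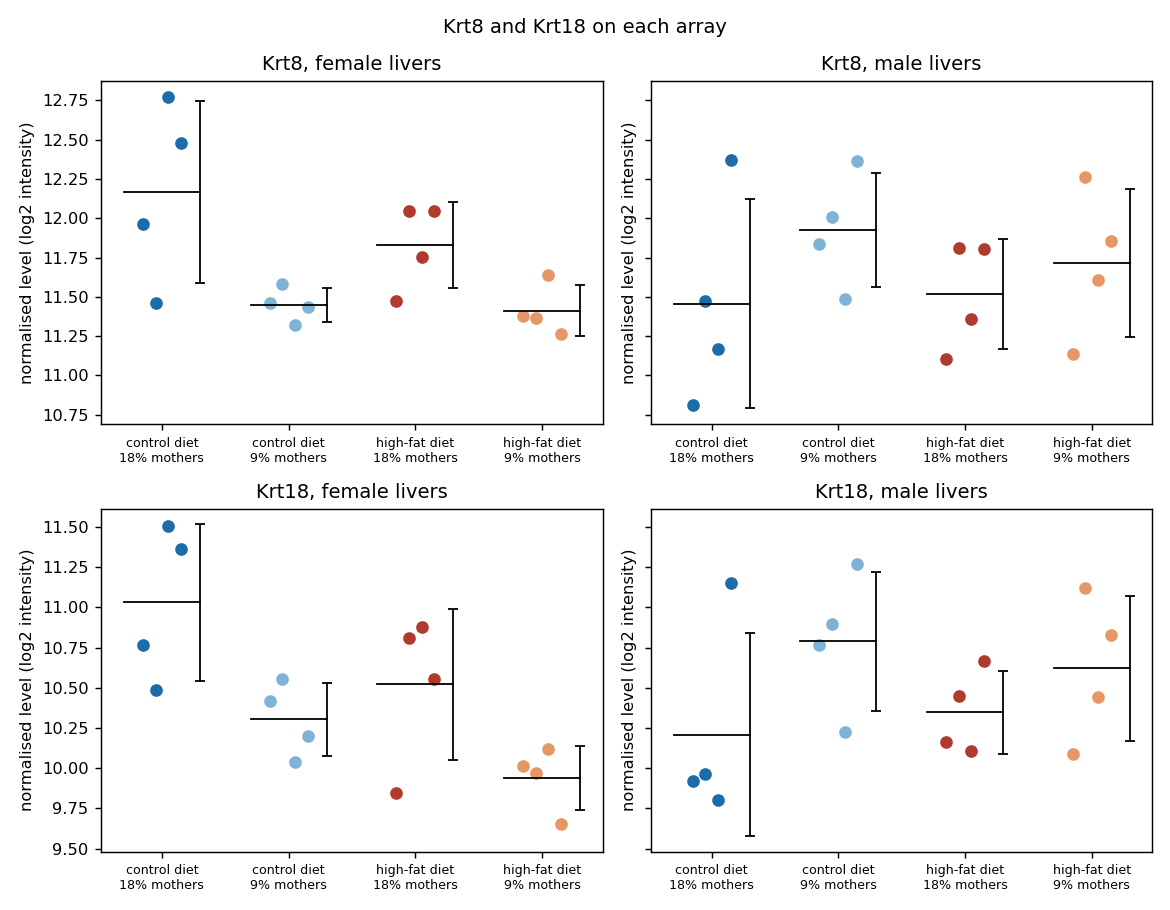
Normalised log2 intensity of Krt8 (top) and Krt18 (bottom) on each array, by group, for females (left) and males (right); points are arrays, lines are group means and bars are SD (n = 4). In females the groups of 9% mothers lie low and close together, and in males the groups overlap; a level is not comparable between the sexes.

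The high-fat diet was the first question, and no marker passed the test for it. Differences are high-fat minus control on the log2 scale with their SE, from a limma fit of the 4 groups of a sex, and a call is an adjusted p (Benjamini-Hochberg over all features of the sex) under 0.05. In females after 18% mothers 0 of 4 markers were called, against 0.0847% of all 9446 features. After 9% mothers 0 of 4 were called against 4.35%, and for the mean of both maternal diets 0 of 4 against 8.78%. In males 0 of 3 markers were called after 18% mothers against 0.631% of 10297 features, 0 of 3 after 9% mothers against 0.107%, and 0 of 3 for the mean of both against 2.06%.

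Within those limits female Krt18 had the largest keratin differences. It lay -0.51 ± 0.23 after 18% mothers (limma adjusted p = 0.396) and -0.36 ± 0.23 after 9% mothers (adjusted p = 0.386), with a mean of -0.44 ± 0.16 (95% interval -0.78 to -0.09, adjusted p = 0.102). Female Krt8 lay -0.34 ± 0.21 (adjusted p = 0.537) and -0.04 ± 0.21 (adjusted p = 0.933). After 18% mothers these sizes rested on single arrays: Krt18 was -0.28 without replicate 1 of the high-fat diet, and Krt8 was -0.14 without replicate 3 of the control diet and -0.58 without its replicate 2. The male keratins were centred near 0 with wide intervals: the mean high-fat difference was -0.07 ± 0.21 for Krt8 (95% interval -0.51 to 0.37, limma adjusted p = 0.893) and -0.01 ± 0.20 for Krt18 (-0.44 to 0.41, adjusted p = 0.978). The male effect minus the female effect was 0.12 ± 0.26 for Krt8 (adjusted p = 0.919) and 0.42 ± 0.26 for Krt18 (95% interval -0.13 to 0.97, adjusted p = 0.602), from the limma effects and SEs of the 2 sexes. Marker lists of other cells are given beside the female mean of both maternal diets, where 8.78% of all features were called. The hepatocyte markers split 10 higher and 8 lower (median 0.02), with 2 of 18 called, Cps1 and Hnf4a, both lower. Of the stellate cell and fibroblast markers 11 of 14 lay lower (median -0.12), with 3 called, Lum, Reln and Hgf. Lower too lay 8 of 12 endothelial and 5 of 5 neutrophil markers, while macrophage markers split 7 and 7 and lymphocyte markers 4 higher and 3 lower, with 0 called. The 5 named genes were chosen after their values were seen; Cps1 and Lum were called in 22 of 23 alternative settings, Hnf4a in 12 of 23, Reln in 10 of 23 and Hgf in 7 of 22. The part of these cells in the keratin values was not tested. None of the 3 markers tested in both sexes was called for this difference, against 0% of 6941 genes; 668 genes had an unadjusted p under 0.05.

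The maternal diet was the second question, and the keratin pair differed in the same direction on both offspring diets, opposite in the 2 sexes, without passing the test. In females on the control diet, 9% minus 18% mothers was -0.72 ± 0.21 for Krt8 (95% interval -1.16 to -0.28, limma adjusted p = 0.512) and -0.73 ± 0.23 for Krt18 (-1.21 to -0.24, adjusted p = 0.579). On the high-fat diet it was -0.42 ± 0.21 for Krt8 (adjusted p = 0.531) and -0.58 ± 0.23 for Krt18 (adjusted p = 0.469). These intervals leave 0 outside in 3 of the 4 cases before adjustment, but after adjustment over all features they are not called. The 4 cases are not independent, since the 2 keratins moved together over the same arrays. Exact permutation tests of 4 arrays against 4 gave unadjusted p-values above 0.05 in all 4 cases. They were 0.0857 (Krt8) and 0.0571 (Krt18) on the control diet, and 0.0571 and 0.114 on the high-fat diet. In both female comparisons 0 of 4 markers were called, against 0% of all features. An unadjusted p under 0.05 was found for 593 features on the control diet and 898 on the high-fat diet. Without replicate 3 of the control diet after 18% mothers, the control-diet differences were -0.52 for Krt8 and -0.57 for Krt18. Without its replicate 2 they were -0.96 and -0.91.

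In males the same contrasts were positive. On the control diet Krt8 lay 0.47 ± 0.30 higher after 9% mothers (limma adjusted p = 1, 95% interval -0.16 to 1.09) and Krt18 0.58 ± 0.29 higher (adjusted p = 1, -0.03 to 1.19). On the high-fat diet the differences were 0.20 ± 0.30 for Krt8 (adjusted p = 0.895) and 0.27 ± 0.29 for Krt18 (adjusted p = 0.824). Here 0 of 3 markers were called in either comparison, against 0% of all features, with 379 and 713 features at an unadjusted p under 0.05. Without replicate 4 of the control diet after 18% mothers, the array that stood apart, the male control-diet difference of Krt18 was 0.89 and that of Krt8 0.77, and without its replicate 1 that of Krt8 was 0.25.

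Because the single comparisons ran the same way, the maternal difference was also averaged over both offspring diets, a contrast added after those values were seen. It was -0.57 ± 0.15 for Krt8 (limma adjusted p = 0.204, 95% interval -0.88 to -0.26) and -0.65 ± 0.16 for Krt18 (adjusted p = 0.204, -0.998 to -0.31) in females. In males it was 0.33 ± 0.21 for Krt8 and 0.43 ± 0.20 for Krt18 (both limma adjusted p = 1). Markers called numbered 0 of 4 in females and 0 of 3 in males, against 0% of all features in each sex; 982 female and 344 male features had an unadjusted p under 0.05. Leaving out replicate 2 of the female control diet after 18% mothers, the lowest keratin array of its group, brought Krt8 past the threshold at -0.69 (adjusted p = 0.0364), with 8 features called in all. Without replicate 3, the highest keratin array of that group, the averaged difference shrank to -0.47 for Krt8 and -0.58 for Krt18, neither called. The size thus leaned on single arrays in both directions.

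The male maternal effect minus the female one was 0.90 ± 0.26 for Krt8 (95% interval 0.36 to 1.44) and 1.08 ± 0.26 for Krt18 (0.53 to 1.63). This comparison of the sexes was also added after the values of each sex were seen, so its ranks are no independent support. By unadjusted p, Krt18 ranked 2 and Krt8 ranked 21 of the 6941 genes measured in both sexes, yet the adjusted p from the limma effects was 0.612 for both. For this difference 0 of 3 markers were called, against 0% of those genes; 504 had an unadjusted p under 0.05. Sex and array version coincide, so they cannot be told apart in this difference, although both keratins were read by the same probe in both sexes.

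**Figure D3:**
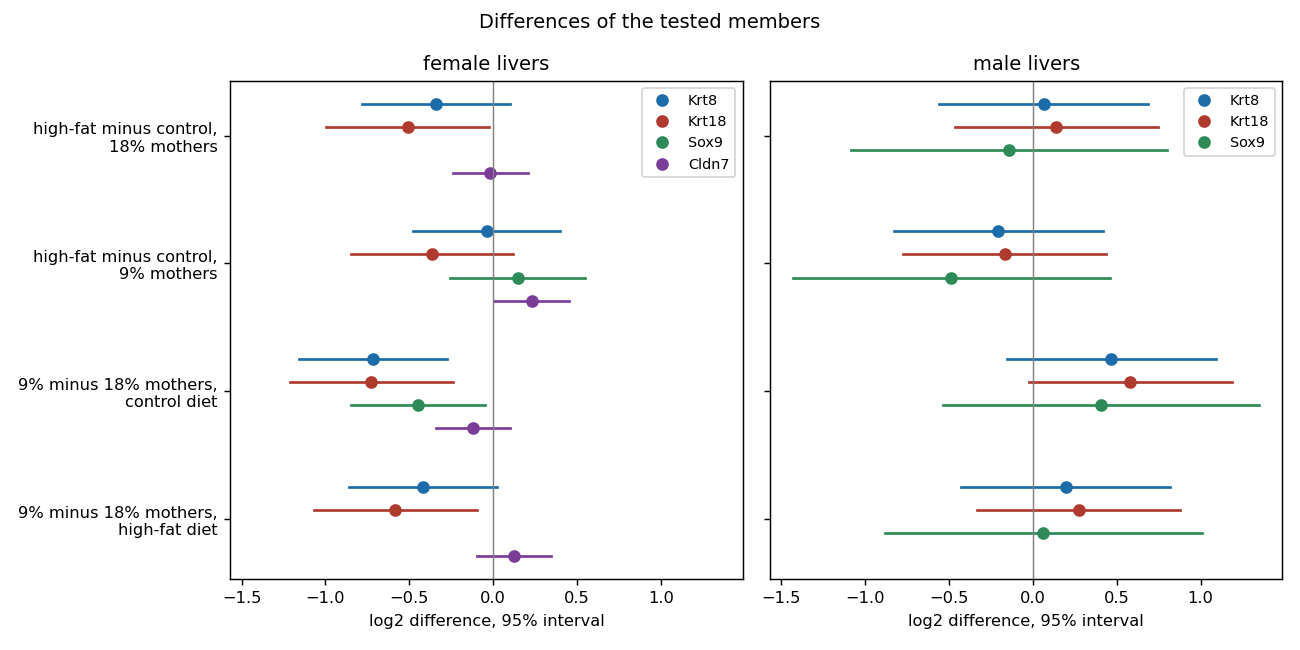
Log2 differences of the tested markers with 95% intervals, for 4 comparisons in females (left) and males (right). Female Sox9 is left out where a group was detected on 0 of 4 arrays. The maternal differences of Krt8 and Krt18 lie below 0 in females and above 0 in males, and no marker was called in any of them.

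Marker lists of other cells are given beside the maternal differences as counts of tested genes on each side of 0; none of these genes was called for maternal diet. In females on the control diet, where the keratins lay lower after 9% mothers, 11 of 14 stellate cell and fibroblast markers (median -0.19 against -0.00447 over all features), 9 of 12 endothelial, 13 of 18 hepatocyte and 6 of 11 other bile duct markers lay lower. On the opposite side, 11 of 14 macrophage (median 0.19), 5 of 5 neutrophil and 5 of 7 lymphocyte markers lay higher. For females fed the high-fat diet most markers of every one of these lists lay lower: 12 of 14 stellate cell and fibroblast, 13 of 14 macrophage, 7 of 7 lymphocyte, 5 of 5 neutrophil, 9 of 12 endothelial, 11 of 18 hepatocyte and 7 of 11 other bile duct markers. In males on the control diet, where the keratins lay higher after 9% mothers, 12 of 12 macrophage (median 0.36 against 0.0157 over all features), 6 of 6 lymphocyte, 5 of 6 neutrophil, 10 of 12 stellate cell and fibroblast, 7 of 11 endothelial and 8 of 12 other bile duct markers lay higher, and 10 of 15 hepatocyte markers lower. For males fed the high-fat diet 11 of 12 stellate cell and fibroblast (median -0.22), 8 of 12 other bile duct, 7 of 12 macrophage and 6 of 11 endothelial markers lay lower, and 10 of 15 hepatocyte, 5 of 6 lymphocyte and 4 of 6 neutrophil markers higher.

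The summed linear levels of these lists overlapped between the maternal diets. In females on the control diet the stellate cell and fibroblast list summed to 16240 to 17015 after 18% mothers and 13702 to 17859 after 9% mothers (Timp1 detected on 0 arrays), and the macrophage list to 6476 to 10658 and 7798 to 13443 (Cd5l and Itgam on 0). The other bile duct list summed to 4845 to 5796 and 4804 to 5687 (7 of its 20 genes detected on 0 arrays), and the hepatocyte list to 283709 to 309889 and 277598 to 297054. Bright genes weigh most in such a sum. In the female other bile duct list these were Aqp1 (mean log2 level 11.38) and Cldn3 (10.06), so the sum says little about its dimmer genes. In males on the control diet the macrophage list summed to 3227 to 4317 and 3837 to 7181 (Cd163 and Itgam on 0). The part of these cells in the keratin differences was not tested.

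The interaction, the high-fat effect after 9% mothers minus that after 18% mothers, was not called for any marker either. In females it was 0.30 ± 0.30 for Krt8 and 0.14 ± 0.33 for Krt18 (limma adjusted p = 0.905 and 0.955). In males it was -0.27 ± 0.42 for Krt8 and -0.31 ± 0.41 for Krt18 (adjusted p = 0.885 and 0.862). The counts were 0 of 4 in females and 0 of 3 in males, against 0% of all features in each sex; 500 female and 699 male features had an unadjusted p under 0.05.

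The levels of Krt8 and Krt18 moved together from liver to liver. Over the 16 female arrays Pearson's r of their normalised log2 levels was 0.907 (permutation p = 1e-05, the smallest 100000 resamples can give; 8e-05 adjusted over 16 relations) and Spearman's rho 0.868 (permutation p = 6e-05, adjusted 0.00048). Over the 16 male arrays r was 0.941 (permutation p = 1e-05, adjusted 8e-05) and rho 0.941 (permutation p = 1e-05, adjusted 0.00016). Leaving out the 2 arrays farthest from the median of Krt8 gave r = 0.789 in females and 0.939 in males. The relation was not one of group means alone: with each group's mean removed r was 0.850 in females and 0.936 in males. Within single groups of 4 arrays r ran from 0.727 to 0.988 in females and from 0.865 to 0.991 in males. Over the 16 arrays of a sex, the overall brightness of an array moved less closely with the pair: r with the log2 mean raw intensity was 0.326 for Krt8 and 0.468 for Krt18 in females, and 0.197 and 0.149 in males, with an adjusted permutation p of 0.218 or more. Within single groups of 4 arrays r with brightness ran from -0.795 to 0.979 for Krt8 and from -0.917 to 0.840 for Krt18 in females. In males it ran from -0.263 to 0.385 and from -0.247 to 0.480.

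**Figure D4:**
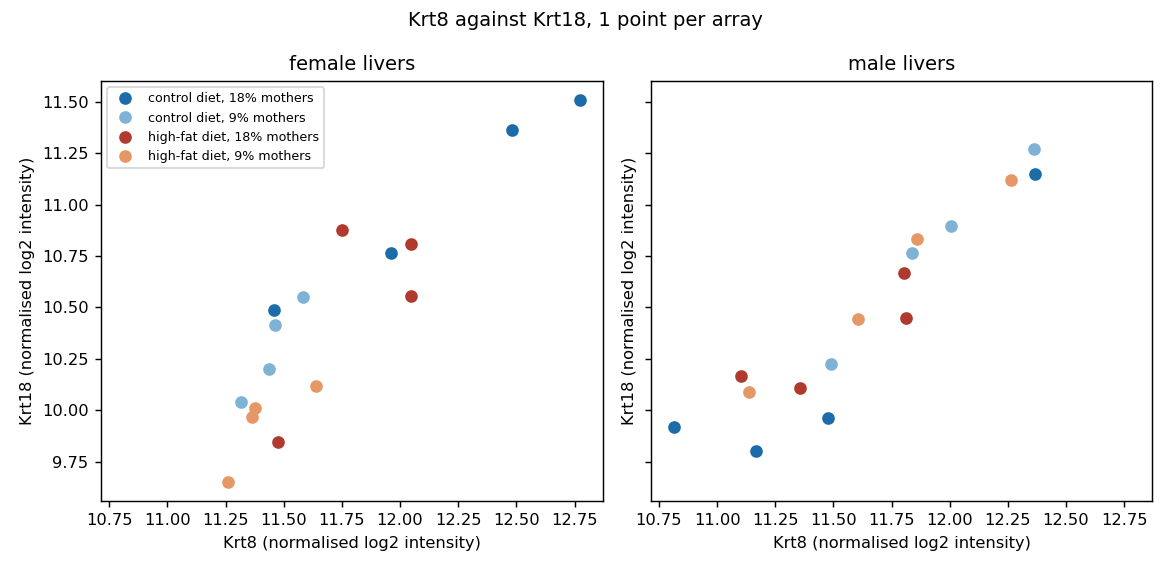
Krt18 against Krt8, both as normalised log2 intensity, with 1 point per array and colours for the 4 groups, in females (left) and males (right). The arrays of each sex lie along a rising line, with Pearson's r of 0.907 in females and 0.941 in males.

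Each keratin was also among the genes closest to the other. Ranked by Pearson's r with Krt18 over 16 arrays, Krt8 came first in both sexes. Ranked by r with Krt8, Krt18 came first in males and second in females, behind Ank3 (r = 0.923), an ankyrin that ties membrane proteins to the cytoskeleton. Next to Krt18 in females were Mob3a (r = 0.880) and Sun1 (r = 0.874), a nuclear envelope protein of the bridge to the cytoskeleton. In males Sat1, the enzyme that acetylates spermidine and spermine, followed closely for both keratins (r = 0.931 with Krt8 and 0.920 with Krt18), with Fam107b at r = 0.912 for Krt8 and Arf6, a small GTPase of membrane traffic, at r = 0.915 for Krt18. These correlations describe 16 arrays each and were chosen as the highest among all genes tested in that sex.

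Sox9 was read by different probes in the 2 sexes. In males its normalised level was 8.21, 7.38, 7.32 and 9.18 on the control diet after 18% mothers (mean 8.02 ± 0.87) and 8.14, 8.01, 7.70 and 9.84 on the control diet after 9% mothers (mean 8.42 ± 0.96). The high-fat values were 7.72, 8.02, 7.60 and 8.17 after 18% mothers (mean 7.88 ± 0.26) and 7.44, 8.73, 7.43 and 8.16 after 9% mothers (mean 7.94 ± 0.63). The 2 highest male arrays were replicate 4 of each control-diet group, and all 4 groups overlapped. The raw intensity ran from 108 to 930.

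No male Sox9 difference passed the limma test. The high-fat difference was -0.14 ± 0.45 after 18% mothers and -0.49 ± 0.45 after 9% mothers (adjusted p = 0.902 and 0.753). The maternal difference was 0.40 ± 0.45 on the control diet (adjusted p = 1) and 0.06 ± 0.45 on the high-fat diet (adjusted p = 0.987). Both comparisons with the control diet after 9% mothers rested on 1 array: without its replicate 4 the maternal difference was -0.07 and the high-fat difference -0.01. The interaction was -0.34 ± 0.63 (adjusted p = 0.905).

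Male Sox9 moved with the keratins. Over 16 arrays r with Krt18 was 0.822 (permutation p = 4e-05, adjusted 0.000213) and rho 0.735 (permutation p = 0.00165, adjusted 0.0088). With Krt8 r was 0.738 (permutation p = 0.00054, adjusted 0.00216) and rho 0.618 (permutation p = 0.0129), which missed the threshold after adjustment (0.0518). Without the 2 arrays farthest in the keratin r was 0.748 with Krt18 and 0.842 with Krt8, and with group means removed 0.868 and 0.734. Krt18 ranked 9 and Krt8 ranked 36 among the genes closest to male Sox9, behind Lratd1 (r = 0.866), Slc16a6, a monocarboxylate transporter family member (r = 0.863), and Chka, choline kinase (r = 0.846).

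In females the Sox9 probe was dim, with a raw intensity of 3.21 to 45.6. It was detected on 3 of 4 arrays of the control diet after 18% mothers, 2 of 4 of the control diet after 9% mothers, 1 of 4 of the high-fat diet after 9% mothers and 0 of 4 of the high-fat diet after 18% mothers. The normalised values were 5.44, 5.82, 5.04 and 5.38 in the first of these groups (mean 5.42 ± 0.32) and 4.65, 4.88, 4.93 and 4.78 in the last (mean 4.81 ± 0.12). These 2 groups do not overlap. Since the probe was not well above background in the dim group, only a bound on the group means is given. The mean was at least 1.19-fold lower on the high-fat diet, a bound that leaves out sampling error. The difference was not called (limma adjusted p = 0.242). Sox9 is 1 of 4 female markers whose groups do not overlap in that comparison, where 7.27% of all features do not. Sox9 passed the detection filter with 6 of 16 arrays, 3 of them in the brighter of these groups, so this count is not independent of the filter. For the female high-fat diet after 9% mothers the count was 0 of 4 against 10.9%, and for maternal diet 0 of 4 against 3.18% on the control diet and 0 of 4 against 4.33% on the high-fat diet. In males the counts were 0 of 3 in each comparison, against 6.86% and 7.63% for the high-fat diet (after 18% and 9% mothers) and 2.83% and 3.38% for maternal diet (on the control and the high-fat diet).

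The other 2 female groups for Sox9 lay between, at 5.11, 5.44, 4.64 and 4.69 on the control diet after 9% mothers (mean 4.97 ± 0.38) and 4.97, 5.24, 5.41 and 4.84 on the high-fat diet after 9% mothers (mean 5.12 ± 0.26). The maternal difference was -0.45 ± 0.19 on the control diet (limma adjusted p = 0.716), and the high-fat difference after 9% mothers was 0.15 ± 0.19 (adjusted p = 0.704). The maternal comparison on the high-fat diet (adjusted p = 0.606) and the interaction (adjusted p = 0.875) rest on the group with 0 of 4 arrays detected, so no size is given. Over the 16 female arrays r of Sox9 was 0.136 with Krt8 and 0.303 with Krt18 (adjusted permutation p = 0.894 and 0.509). Within groups of 4 arrays, which are too few for a test, the groups ran opposite ways. On the control diet after 18% mothers r was -0.899 with Krt18 and -0.954 with Krt8 (Sox9 detected on 3 of 4 arrays). After 9% mothers r was 0.966 and 0.906 on the control diet (2 of 4) and 0.806 and 0.865 on the high-fat diet (1 of 4). These values rest partly on signals near background, and no r is given for the group with 0 of 4 arrays detected. The genes closest to female Sox9 by r were Gucy1a1, a subunit of soluble guanylate cyclase (0.836), Gprasp1 (0.831) and Mmp14, a membrane-bound matrix metalloproteinase (0.827). No difference between the sexes is given in size for Sox9, across different probes and with the female one near background; its adjusted p was 0.964 for the high-fat diet and 0.877 for maternal diet.

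**Figure D5:**
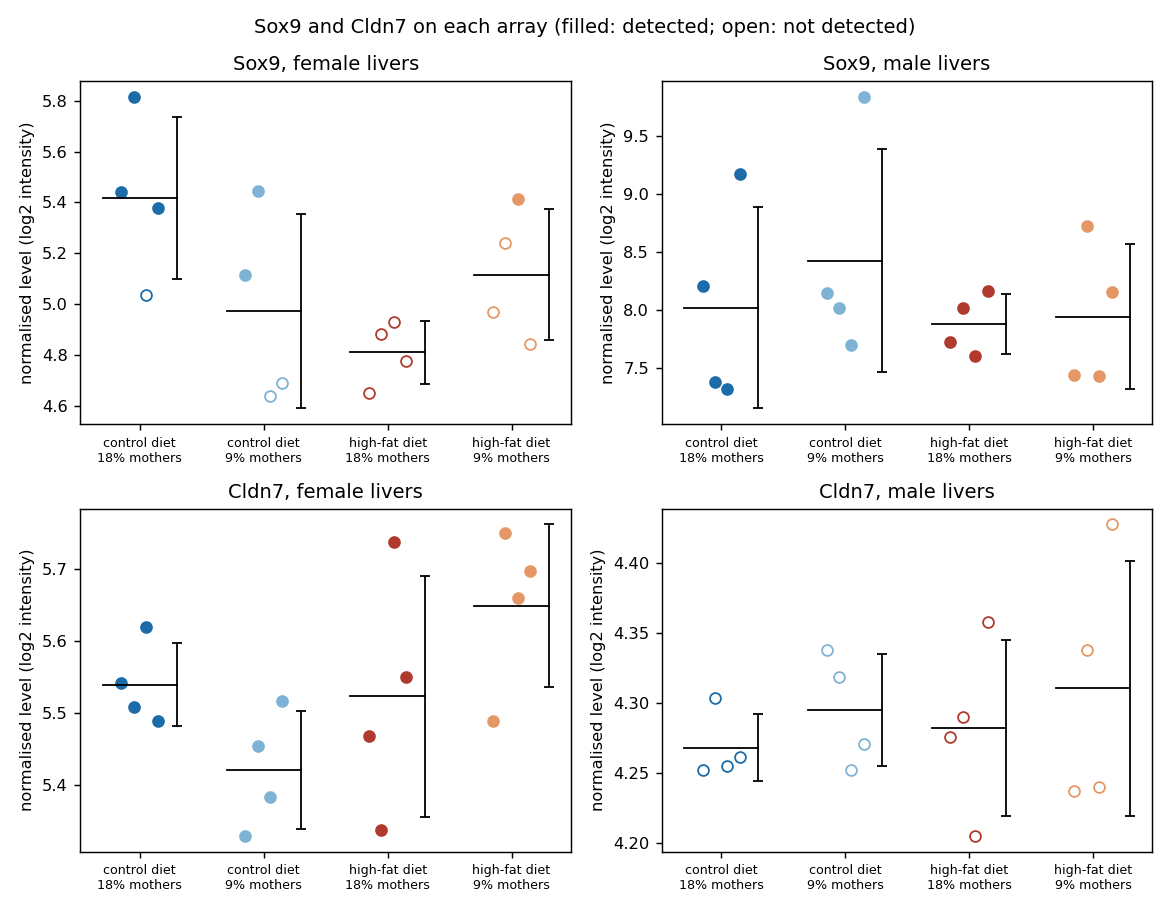
Normalised log2 intensity of Sox9 (top) and Cldn7 (bottom) on each array by group, in females (left) and males (right), with filled points for detected and open points for not detected arrays, group means as lines and SD as bars (n = 4); each panel has its own scale and probe. Female Sox9 is detected on 6 of 16 arrays and male Cldn7 on 0 of 16.

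Cldn7 was measured in females at a low but detected level, with a raw intensity of 21.8 to 41.0 over 16 arrays. The normalised group means were 5.54 ± 0.06 on the control diet after 18% mothers (values 5.54, 5.51, 5.62 and 5.49) and 5.42 ± 0.08 on the control diet after 9% mothers (5.33, 5.45, 5.38 and 5.52). On the high-fat diet they were 5.52 ± 0.17 after 18% mothers (5.47, 5.34, 5.74 and 5.55) and 5.65 ± 0.11 after 9% mothers (5.49, 5.75, 5.66 and 5.70). All groups overlapped. The largest difference between 2 groups was that of the high-fat diet after 9% mothers, 0.23 ± 0.10 (95% interval 0.01 to 0.45, limma adjusted p = 0.216). After 18% mothers it was -0.02 ± 0.10 (adjusted p = 0.966), and the maternal differences were -0.12 ± 0.10 on the control diet and 0.13 ± 0.10 on the high-fat diet (adjusted p = 0.908 and 0.718). The interaction was 0.24 ± 0.15 (adjusted p = 0.884). Cldn7 did not track the keratins (r = 0.0118 with Krt8 and -0.0799 with Krt18), and its closest gene by r was Treml1 (0.864), ahead of Fgf12 (0.777) and Zfp607a (0.771).

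The probes below background were compared by exact permutation tests, two-sided, 4 arrays against 4, which cannot give a p under 0.0286. There were 20 such tests of probes below background, on Krt19 in both sexes and on Epcam, Cldn7 and the second Krt8 probe in males. The signal of the Krt19 probe reached that smallest p for the high-fat diet after 9% mothers in females and after 18% mothers in males (exact p = 0.0286 each, adjusted over the 20 tests 0.286). Krt19 was detected on no array of either sex, so no size is given. The other 18 tests gave an exact p of 0.171 or more.

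Genes that work with the markers were read from lists of related genes. Of 26 other keratins 6 were tested in each sex: in females 1 rose on the high-fat diet (mean of both maternal diets), Krt10, a keratin best known from the epidermis, by 0.30 ± 0.09 (limma adjusted p = 0.0384), and 0 fell. The share of all features called in that comparison, to be set beside each list in this paragraph, was 8.78%. With 1 call in 13 or 14 genes a list is near that share. With 1 in 6 the keratin list is above it, through 1 gene only. Of 13 female genes on the list of claudins and tight junctions 0 rose and 1 fell, Cdh1, at -0.55 ± 0.16 (adjusted p = 0.0461). Cdh1 is E-cadherin, an adhesion molecule of adherens junctions placed on that list, and neither a claudin nor a tight junction gene. Of 14 genes of the Notch and Sox9 pathway 0 rose and 1 fell, Foxa1, a transcription factor of liver development, at -0.45 ± 0.12 (adjusted p = 0.0336). Of 10 genes of the Yap and Tead list, which holds members of the pathway itself as well as targets, 0 rose and 0 fell. Of the alternative settings, Krt10 was called in 9 of 23, Cdh1 in 7 of 23 and Foxa1 in 12 of 23. The medians of these 4 lists were 0.11, -0.01, -0.09 and -0.10, against 0.00243 over all features.

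In the same female comparison 1 of 9 osteopontin receptors and partners fell, Itgav, the alpha v integrin subunit (limma adjusted p = 0.0132, called in 21 of 22 alternative settings). It was detected on 0 of 4 arrays of the high-fat diet after 9% mothers, where its mean was at least 1.18-fold lower than on the control diet (adjusted p = 0.0122). Of 14 genes of keratin aggregates and stress, 1 fell after 9% mothers: Plec, the plectin that links keratin filaments to other structures, at -0.45 ± 0.12 (limma adjusted p = 0.0390, called in 12 of 23 alternative settings), where 4.35% of all features were called. With the brightness of each array in the fit as a covariate none of these 5 genes was called (adjusted p = 0.239 to 0.418), and the differences were 0.23 for Krt10, -0.43 for Cdh1, -0.39 for Foxa1 and -0.41 for Plec. In males, and for maternal diet and the interaction in both sexes, 0 genes of these 6 lists were called.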

How the data were processed

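Liver RNA was measured on Illumina bead arrays, 1 array per sample. The authors deposited, per the file headers, a non-normalised intensity per probe and a detection p-value; the intensities go below 0 and were thus background-subtracted, and a second deposited table of normalised intensity served as an alternative; per the submitters' processing notes BeadStudio was used, with no version or settings stated. For each sex, limma 3.58.1 (R 4.3.3) was used for background correction and quantile normalisation (neqc, offset 16, with the negative controls' spread inferred from detection p) to log2 values. A probe stayed in if 4 or more of a sex's 16 arrays detected it (p under 0.05), and the brightest probe stood for its gene. One fit per sex held its 4 groups (lmFit and eBayes with a trend), and p-values adjusted by Benjamini-Hochberg over all features of that sex at a threshold of 0.05. Probes below background, and the female maternal differences of Krt8 and Krt18, were compared by exact permutation tests. Relations across arrays were compared by permutation tests with 100000 resamples. The number of arrays limits the precision. A bound uses the lowest signal detected on each array of the dim group, compares group means and leaves out sampling error. The script was tested on simulated data.

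The markers and gene lists were chosen with earlier results of these data known. The text names all markers, up to 4 genes per related list past the threshold, and the 3 genes with the highest r to each tested marker. Promoters came from RefSeq (GRCm38.p6). Alternatives changed the background correction, normalisation, filter, probe rule, covariates and arrays used. The averaged maternal contrast and its difference between the sexes were added after the data were seen. Figures were drawn with matplotlib 3.10.9.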

Additional observations from a re-analysis of the deposited data

Results flagged for a closer look

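Krt18 on replicate 4 of the male control diet after 18% mothers had a normalised log2 level of 11.15, with the nearest of the other 3 arrays at 9.96. The gap was 0.882 of the group's range, above Dixon's 95% critical value for 4 samples. The test was made in 28 groups, and chance flags about 1 in 20. The same array was the highest of its group for Krt8 and Sox9 too, and the cause was not tested.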

How the results depend on the processing

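The number of markers called was 0 in each comparison and stayed 0 under the deposited normalised values, other background corrections, filters and probe rules and the brightness covariate. The exception was the female maternal difference averaged over both offspring diets, where leaving out 1 array gave 0 to 1 markers called: without replicate 2 of the control diet after 18% mothers it was 1, Krt8 at -0.69 (limma adjusted p = 0.0364). Without replicate 3 of that group Krt8 was -0.47 and was not called. Of 1113 alternative values for the marker differences, 1112 stayed above the threshold, as the main values did, and 40 changed sign. The male Sox9 difference on the control diet ran from -0.07 to 0.79 over the arrays left out. All 232 alternative values of the male minus female differences missed the threshold, as the main values did, and all 114 of the relations stayed on their side, and r of Krt8 with Krt18 ran from 0.869 to 0.924 in females and 0.929 to 0.959 in males with 1 array left out. Counts over all features depended more on the setting. For the female high-fat diet 8, 411 and 829 (after 18% mothers, after 9% mothers and their mean) became 0, 3 and 11 with array brightness as a covariate. For males 65, 11 and 212 became 25, 7 and 89. All 15 calls of list genes in the 2 sexes, counted once per comparison, were lost with that covariate (limma adjusted p = 0.138 to 0.575). The male call among them was Cela2a of the pancreas list, lower on the high-fat diet for the mean of both maternal diets (limma adjusted p = 0.0456 without the covariate). Over all settings 140 of the 340 alternative values of these calls missed the threshold. The cause was not tested. With no detection filter the female counts after 9% mothers and for the mean were 219 and 523. The deposited normalised values, and equally a floor of 16 without normexp, gave 19 and 5 for the male counts after 18% and 9% mothers, and the mean over probes gave 17 for the latter. With 1 array left out these 6 counts ran from 0 to 19, 84 to 611 and 469 to 959 in females and from 10 to 102, 6 to 22 and 97 to 260 in males. The female maternal counts of 0 reached 2 on the control diet, 4 on the high-fat diet and 8 for their mean, and the male interaction reached 4. With the replicate number as a block the counts were 10, 448 and 927 in females and 58, 11 and 230 in males, with 0 markers called. Same-numbered arrays of 2 groups correlated at -0.201 to 0.490 after group means were removed. Per pair of groups the mean ran from -0.0668 to 0.230 for same-numbered and from -0.0766 to 0.0219 for other arrays. Whether the numbers pair the samples was not tested. The slide could not be used as a block, since the sources used here give none. Signals near background limit female Sox9 and Cldn7, and only bounds can be given where a group was not detected.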
